A study of Mus musculus and unidentified plasmid with 60 samples.

Results

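The 4 Hox clusters, HoxA on chromosome 6, HoxB on chromosome 11, HoxC on chromosome 15 and HoxD on chromosome 2, were examined for binding of a dominant-negative form of RFX (RFX-DN) in cultured mouse cortical neurons. Members were the listed regions that overlapped 1 of 4 mm9 intervals by at least 1 base, namely 52095000 to 52215000 for HoxA (120 kb), 96045000 to 96245000 for HoxB (200 kb), 102740000 to 102880000 for HoxC (140 kb) and 74490000 to 74615000 for HoxD (125 kb). These intervals cover 585 kb and hold 38 Hox genes considered here. They contained 22 of 173231 regions listed in silenced neurons (0 h), 21 of 122135 regions listed after 1 h of depolarization and 0 of 43 regions in the list of the group titled WT.

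Of the 60 samples in the series, 6 ChIP-seq libraries contributed, 2 in each of the 3 groups. All came from cortical cultures of CD-1 mouse embryos at E16, and the shared protocol describes lentiviral delivery of RFX-DN at day in vitro (DIV) 2, silencing overnight from DIV 6 with tetrodotoxin and DL-2-amino-5-phosphonopentanoic acid, and precipitation with an anti-MYC antibody. The 0 h neurons were labelled unstimulated, and the 1 h neurons had the drugs removed at DIV 7 and received 55 mM KCl, which depolarizes the membrane and mimics strong activity. The WT group carries no treatment label, and whether its neurons received the construct is unclear. The antibody reads the tagged construct and not native RFX proteins, the cultures are not sorted, and no expression data were used here, so neuronal marker genes could not be checked. Each list gives combined regions with a start, an end and a peak centre in a first column, a second column or both, read as the 2 replicates, and the depth of the libraries is unknown.

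Hox genes encode homeodomain transcription factors that give cells their position along the body axis. They lie in the order in which they are used from head to tail, and in forebrain, which lies in front of their expression domains, the clusters are known as silent, Polycomb-covered chromatin. RFX proteins are winged-helix transcription factors that bind X-box motifs and are best known for control of ciliary and MHC class II genes. In the RefSeq annotation of GRCm38.p6 all 38 genes were found. In order of rising coordinate the members ran from Hoxa2, a hindbrain and branchial arch gene, to Hoxa13, a gene of digits and the urogenital tract. The other clusters ran from the posterior gene to the anterior one, from Hoxb13, expressed in prostate, to Hoxb1, a hindbrain gene, from Hoxc13, needed for hair, to Hoxc4, and from Hoxd13, a digit gene, to Hoxd1. The lists are in mm9 and no mm9 annotation was used, so no region was assigned to a gene.

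Promoter sequences in RefSeq (GRCm38.p6) were available for 22 of the 38 genes, as 24 entries of 300 bases from 250 bases before to 50 bases after the start. They were searched on both strands for the RFX half-site GTTGCC, which is part of the palindromic pattern searched next. It occurred in 2 of the 24 entries (8.33%), against 12.5% of all 32851 promoters. The full pattern GTTGCCNNGGCAAC was in 0 of 24 entries and in 0.0944% of all promoters. Both promoters with the half-site belong to HoxA genes, Hoxa5, which acts in lung and axial skeleton, and Hoxa10, which acts in uterus and lumbar patterning. They are shown because they are the entries that hold letters of the factor's site, as the 250 bases before the start on the minus strand, 5′ to 3′, with the half-site in capitals. The Hoxa5 sequence is chr6:52204588-52204837 and its half-site, in reverse orientation, ends 45 bases before the start. The Hoxa10 sequence is chr6:52240855-52241104 and its half-site ends 13 bases before the start. These are GRCm38.p6 positions and cannot be set against the mm9 regions, and a match of letters is no evidence of binding.
Hoxa5: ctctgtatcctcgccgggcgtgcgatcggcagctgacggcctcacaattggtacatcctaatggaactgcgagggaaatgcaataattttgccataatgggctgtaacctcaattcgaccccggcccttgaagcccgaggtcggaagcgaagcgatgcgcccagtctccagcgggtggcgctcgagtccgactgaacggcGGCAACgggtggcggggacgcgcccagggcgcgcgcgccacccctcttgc
Hoxa10: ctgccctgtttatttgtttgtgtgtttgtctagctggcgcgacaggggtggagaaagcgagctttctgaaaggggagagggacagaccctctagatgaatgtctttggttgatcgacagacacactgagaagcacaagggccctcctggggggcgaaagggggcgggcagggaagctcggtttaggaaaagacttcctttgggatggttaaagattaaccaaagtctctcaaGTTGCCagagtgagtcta

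The first question was how densely RFX-DN regions lay in the Hox clusters. At 0 h the 4 intervals together held 37.6 regions per Mb, against 73.5 per Mb in the rest of chromosomes 2, 6, 11 and 15, a ratio of 0.512. At 1 h they held 35.9 per Mb against 51.4, a ratio of 0.699. Listed sequence covered 0.674% of the intervals at 0 h and 0.569% at 1 h, against 1.66% and 1.17% of the rest. The Hox intervals held 22 and 21 regions, and the rest of the same chromosomes 39956 and 27947. The change in the ratio turned direction when only both-column regions were counted. Of these the intervals held 14 at 0 h and 8 at 1 h, or 23.9 and 13.7 per Mb, and the ratio to the rest was 0.529 at 0 h and 0.478 at 1 h.

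Each cluster had a lower density than the rest of its chromosome at 0 h. HoxA held 4 regions (33.3 per Mb against 66.6), HoxB 9 (45 against 84.5), HoxC 5 (35.7 against 72.8) and HoxD 4 (32 against 72.2). The ratios lay between 0.443 in HoxD and 0.533 in HoxB. For all regions, the clusters were less alike at 1 h. HoxB, with 5 regions, had a ratio of 0.423 and HoxD, with 4, one of 0.634, whereas HoxA, with 5, stood at 0.888 and HoxC, with 7, at 0.99. For both-column regions the 1 h ratios were 0.287 in HoxD, 0.294 in HoxB, 0.661 in HoxA and 0.751 in HoxC. The 0 h ratios of these, in the same order, were 0.541, 0.377, 0.415 and 0.8, so the ratios were already spread at 0 h. They rest on 2 regions in HoxA to 5 in HoxC. By this count HoxC was not near equal density at 1 h, and HoxD rather than HoxB was lowest. The all-region ratios rest on 4 to 9 regions a cluster and those of both-column regions on 1 to 5, and the differences between clusters were not tested.

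The same comparison was made within each replicate column. At 0 h the Hox intervals held 18 first-column and 18 second-column centres, or 30.8 per Mb in either, against 66 and 52.7 per Mb in the rest of the 4 chromosomes. At 1 h they held 16 first-column centres (27.4 per Mb against 48.2) and 13 second-column centres (22.2 against 31.8). The ratio of Hox density to the rest was 0.466 and 0.584 in the 0 h columns and 0.567 and 0.699 in the 1 h columns, so all 4 columns were below 1. Their mean was 0.579 ± 0.0953 (SD, n = 4 columns), and the mean log2 ratio was -0.80 ± 0.24. A two-sided exact sign-flip permutation test of the log2 ratios gave p = 0.125 (adjusted over the 2 tests made, 0.25). The unadjusted value is the smallest p that 4 columns allow, so a threshold of 0.05 was out of reach. The columns pool 0 h and 1 h and read the same 4 clusters. The test thus covers the spread between columns and not that between loci of like size.

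**Figure D1:**
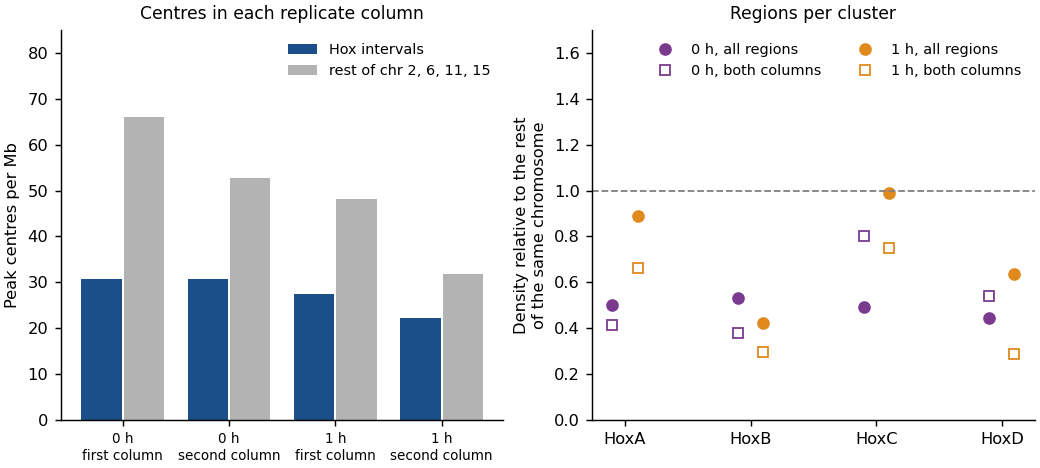
Left, peak centres per Mb (bars) in the Hox intervals and in the rest of chromosomes 2, 6, 11 and 15 for each replicate column of each list. Right, density of regions in each cluster divided by that of the rest of its chromosome, for all regions (filled circles) and for regions with centres in both columns (open squares). The Hox bar is the lower one in all 4 columns, and HoxC at 1 h lies closest to the dashed line of equal density for all regions (0.99) but at 0.751 for both-column regions.

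Depolarization was compared through the share of each column's centres on the 4 chromosomes that lay in the Hox intervals, which allows for the different lengths of the columns. This share was 0.0501% and 0.0628% in the 0 h columns and 0.061% and 0.0751% in the 1 h columns. The groups overlapped, with means of 0.0565% ± 0.00895 at 0 h and 0.0681% ± 0.01 at 1 h (SD, n = 2 columns each). The ratio of the means was 0.83, and a two-sided exact permutation test gave p = 0.667 (adjusted over the 2 tests, 0.667). With 2 columns against 2 the smallest possible p is 0.333, so a difference between 0 h and 1 h could not be shown by this design. Separate cultures are not stated for the libraries, so the spread between columns may be technical.

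Windows of the same length along each chromosome placed the clusters in the lower part of a wide range at 0 h. HoxA, with 4 regions, had as many as or more than 30.2% of the 1218 other windows of 120 kb on chromosome 6, whose median was 7. HoxB, with 9, had as many as or more than 19.6% of 592 windows of chromosome 11, with a median of 17. For HoxC the share was 27.1% of 715 windows (median 9), and for HoxD 23.9% of 1427 windows (median 9). At 1 h the shares were 54.7% for HoxA, 15% for HoxB, 58.3% for HoxC and 36.2% for HoxD, against window medians of 5, 12, 7 and 6. Low counts of this kind were therefore common on these chromosomes, and no cluster lay at the bottom of its range.

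The windows directly adjoining the clusters had densities of 72.6 per Mb in silenced and 47.9 per Mb in depolarized neurons, close to or below the rest of the chromosomes (73.5 and 51.4) and above the clusters. Over a wider range the density was higher. The 5 windows on each side of the 4 clusters, 40 in all, had a density of 93.5 regions per Mb in silenced and 62.9 in depolarized neurons. At 0 h, 36 of the 40 neighbouring windows held more regions than their cluster, and at 1 h 32 of 40 did. All 10 neighbours of HoxB exceeded it at both times, with 15 to 27 regions at 0 h and 10 to 18 at 1 h. The exceptions included the windows on the low-coordinate side of HoxC and HoxD, which held 2 regions each at 0 h and 2 and 3 at 1 h. On that side the nearest listed region outside the interval was 112 kb away from HoxC and 110 kb from HoxD in both lists, with a width of 360 bases at 0 h in either case. The nearest outside HoxA lay 2.9 kb from its low edge and 1.19 kb from its high edge at 0 h, the nearest outside HoxB 14.1 kb and 4.25 kb, and on the high side of HoxC and HoxD 12.6 kb and 5.88 kb. Inside the intervals, the outermost 0 h regions lay 13.9 and 43.5 kb from the edges in HoxA, 25.8 and 65.9 kb in HoxB, 0.56 and 5.79 kb in HoxC and 16.6 and 36.5 kb in HoxD.

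**Figure D2:**
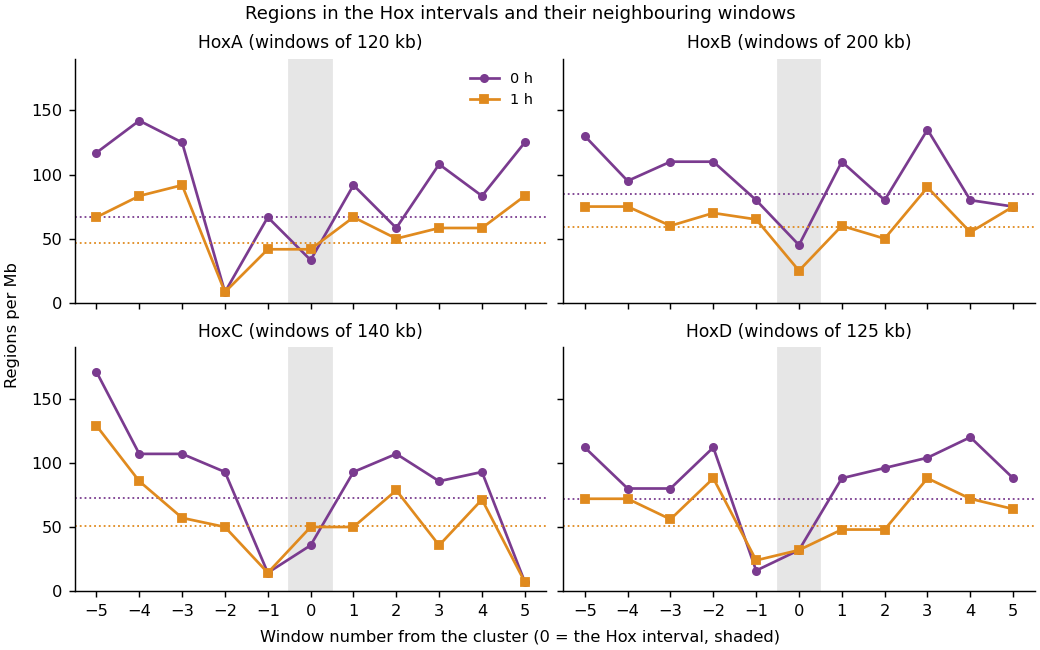
Regions per Mb in the Hox interval (window 0, shaded) and in 5 windows of the same length on each side, in order of coordinate, at 0 h (circles) and 1 h (squares). Dotted lines give the density of the rest of the same chromosome. HoxB lies below all of its neighbours at both times, while HoxC and HoxD adjoin a window with 2 or 3 regions on the low-coordinate side.

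The individual regions fell at 27 sites, of which 16 were listed at both times, 6 only at 0 h and 5 only at 1 h. HoxA had 5 sites. Its widest 0 h region, 52126350 to 52126660 (310 bases), had centres in both columns 10 bases apart and was met by a 1 h region of 250 bases that also had both. A neighbour before it, 52123750 to 52123980 (230 bases, both columns), was met at 1 h by a region of 240 bases with a first-column centre. The region from 52108880 to 52109000 (120 bases) was centred in the first column at 0 h, and its 1 h counterpart of 150 bases in the second. At 52171540 a second-column region of 10 bases, the smallest width in the list, stood opposite a 1 h region of 140 bases with centres in both columns. The region 52139140 to 52139240 (100 bases, second column) was listed at 1 h alone. The last 43.4 kb of the HoxA interval, from 52171640, held no region in either list.

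HoxB was the longest interval, with 10 sites, and held most of the regions listed at 0 h alone. Its widest region, 96138200 to 96138500 (300 bases, both columns), was nearly the same at 1 h (290 bases, both columns). Next in width were 96085950 to 96086130 and 96178900 to 96179080, of 180 bases each and with centres in both columns. The latter was met at 1 h by a region of 100 bases with both columns, and the former was not met at 1 h although its 0 h centres fell on the same base. The region 96173050 to 96173170 (120 bases, both columns) was not met either. Of the other 5 regions, all with 1 column, those starting at 96078990, 96126100 and 96147490 (50, 130 and 50 bases) had no counterpart. Those starting at 96070750 and 96125240, of 10 bases each at 0 h, were met by regions of 170 and 110 bases with a first-column centre at 1 h. A 10-base region at 96072050 (first column) was listed at 1 h alone. The last 65.9 kb of the interval, from 96179080, held no region in either list.

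All 5 HoxC regions at 0 h had centres in both columns. The widest, 102843970 to 102844340 (370 bases), had both centres on the same base at both times and was 360 bases wide at 1 h. The region 102825290 to 102825550 (260 bases) was met at 1 h by one of 190 bases with a first-column centre. The region 102874020 to 102874210 (190 bases) was met by one of 270 bases, and 102828640 to 102828730 (90 bases) by one of 190 bases, both with 2 columns. The region at the low edge, 102740560 to 102740690 (130 bases), had no 1 h counterpart, and the 71.8 kb that followed it, to 102812500, held no region in either list. The 1 h list added 3 regions, at 102812500 (80 bases, second column), 102821520 (10 bases, second column) and 102829390 (70 bases, first column).

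HoxD had 4 sites, all listed at both times. It held the only Hox region of at least 600 bases, 74571410 to 74572130 (720 bases), where 1 of 22 compares with 3.18% of the whole 0 h list. Its 2 centres lay 550 bases apart, the second-column centre at 74571450 and the first-column centre at 74572000. At 1 h the site was 280 bases wide (74571850 to 74572130) with a first-column centre at the same base, 74572000, and no centre at the other place. The regions 74506620 to 74506800 and 74561770 to 74561950, of 180 bases each and with both columns, were met by regions of 120 bases (both columns) and 160 bases (first column). The region 74578390 to 74578510 (120 bases, first column) was met by one of 40 bases with a second-column centre. The 55 kb from 74506810 to 74561770 were free of regions in both lists.

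**Figure D3:**
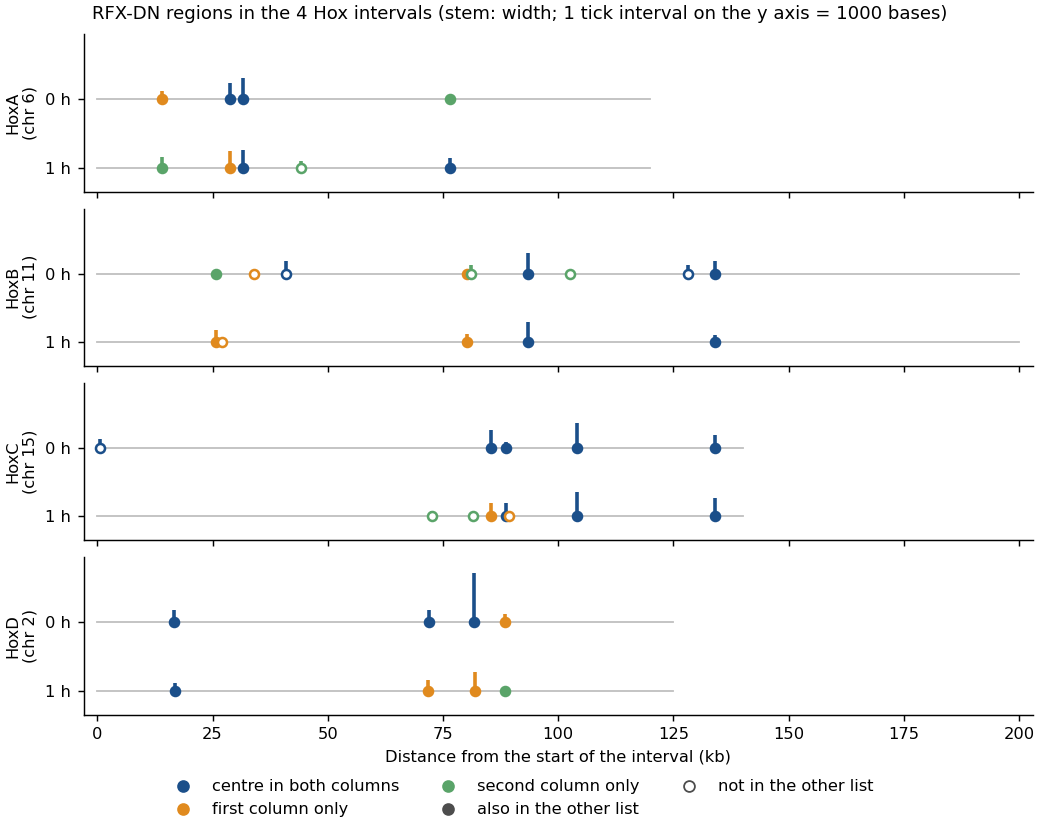
Position of each region in the 4 Hox intervals, in kb from the interval's start, at 0 h and 1 h. Colour gives the column that holds the centre, open circles are regions with no counterpart in the other list, and stems give the width. Of the 6 open circles at 0 h, 5 lie in HoxB, and all 5 open circles at 1 h have a centre in 1 column only.

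Of the 22 Hox regions at 0 h, 16 (72.7%) were met at 1 h, with a 95% exact Clopper-Pearson interval of 49.8% to 89.3%, against 65.4% of the whole 0 h list and 65.1% of the rest of the 4 chromosomes. All 4 regions of HoxA, all 4 of HoxD, 4 of 5 in HoxC and 4 of 9 in HoxB were met. Without HoxB the share was 92.3%. When the rest of the chromosomes was weighted to the width classes and column support of the Hox regions, 51.3% were met, or 11.3 regions out of 22, which also lay inside the interval. The interval covers counting error only, and neighbouring regions are not independent. A difference of the whole Hox share from the rest could thus not be shown at this number of regions, and no test was made. When 50% of each region had to be shared, the Hox share was 45.5% and the rest 53.8%. Without the first 1 h column the Hox share was 45.5% and the rest 42.3%. The Hox share thus depended on 1 column, and the share in the rest fell with it.

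Among the 14 Hox regions that both 0 h columns supported, 3 had no 1 h counterpart (21.4%, interval 4.66% to 50.8%), against 15.1% of such regions in the whole list. These were 2 HoxB regions and the region at the low edge of HoxC. Among the 8 with 1 column, 5 were met at 1 h (62.5%, interval 24.5% to 91.5%), against 34.2% in the rest of the 4 chromosomes, a share inside the interval.

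In the other direction, 5 of the 21 Hox regions at 1 h (23.8%, interval 8.22% to 47.2%) had no 0 h counterpart, against 6.69% of the whole 1 h list and 6.39% of the rest of the 4 chromosomes. Both background values lay below the interval. Of the 5 Hox regions, 3 lay in HoxC, 1 in HoxA and 1 in HoxB. All 5 were between 10 and 100 bases wide and had a centre in 1 column only, 3 of them in the second. None of the 8 Hox regions with both columns at 1 h lacked a 0 h counterpart, against 0.435% in the whole list. Weighted to the width and support of the Hox regions, 91.2% of the rest had a counterpart, against 76.2% of the Hox regions (interval 52.8% to 91.8%). The weighted value lay inside the interval. Among regions at least 100 bases wide the shares were 93.8% in the Hox clusters and 97.2% in the rest. When 50% of each region had to be shared, they were 47.6% and 77%, a wider gap. Intervals cover counting error only, and neighbouring regions of 1 list are not independent.

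Support by the replicate columns was compared next. At 0 h, 14 of 22 Hox regions had a centre in both columns (63.6%, interval 40.7% to 82.8%), against 61% of the whole list. At 1 h 8 of 21 did (38.1%, interval 18.1% to 61.6%), against 54.8%. Both background values lay inside the intervals. By cluster, both columns supported 2 of 4 regions in HoxA, 4 of 9 in HoxB, 5 of 5 in HoxC and 3 of 4 in HoxD at 0 h, and 2 of 5, 2 of 5, 3 of 7 and 1 of 4 at 1 h. The HoxD count at 0 h includes the region of 720 bases, whose centres lay 550 bases apart. Regions with a second-column centre only made up 5 of 21 Hox regions at 1 h (23.8%, interval 8.22% to 47.2%) and 6.16% of the rest of the 4 chromosomes. At 0 h they made up 4 of 22 (18.2%, interval 5.19% to 40.3%) and 10.2%. For these regions the value of the rest lay below the interval at 1 h and inside it at 0 h, and no test was made. At 7 sites both columns of both lists held a centre, 1 in HoxA, 2 in HoxB, 3 in HoxC and 1 in HoxD. They made up 63.6% of the 11 both-column 0 h Hox regions met at 1 h. In the rest of the 4 chromosomes 72.4% of such regions had both columns at 1 h, and the difference was not tested.

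Hox regions had a lower median width than others. It was 155 bases at 0 h (quartiles 97.5 and 220) and 150 bases at 1 h (quartiles 100 and 240), against 210 bases at both times in the rest of the 4 chromosomes (quartiles 120 and 300 at 0 h, 130 and 300 at 1 h). The ranges overlapped broadly, and no test was made. For regions with both columns the Hox medians were 185 and 220 bases, against 270 and 290 in the rest. Of the 16 sites in both lists, 9 were narrower and 7 wider at 1 h, with a median difference of -10 bases, whereas 71.4% of the 25998 such sites in the rest were narrower at 1 h, with a median difference of -30 bases. The wider ones included all 3 of the 10-base regions at 0 h. The greatest narrowing, by 440 bases, was that of the HoxD region with distant centres, whose 1 h counterpart held only the first-column centre.

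**Figure D4:**
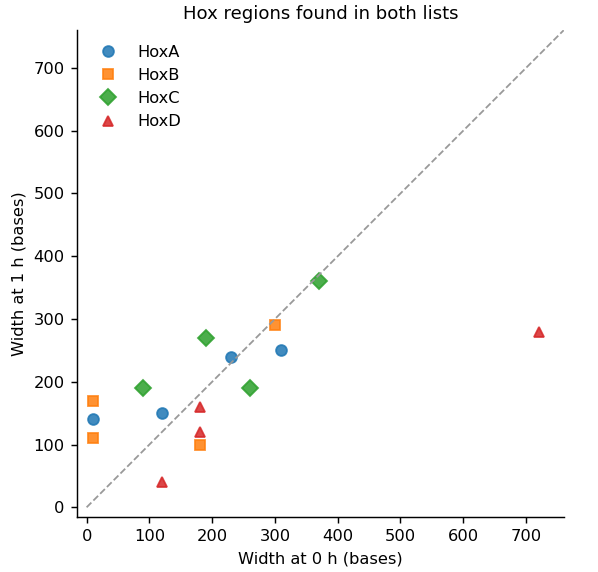
Width in bases at 0 h (x axis) and at 1 h (y axis) of the 16 Hox regions found in both lists, 1 point each, with the line of equal width. The HoxD region of 720 bases lies far below the line at 280 bases, and the 3 regions of 10 bases at 0 h lie above it at 110 to 170 bases.

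The WT list could say little about the Hox clusters. It held 43 regions in all and 7 on the 4 chromosomes, of which none was in a Hox interval. The nearest lay 2.96 Mb from HoxA, 71 Mb from HoxB and 14.2 Mb from HoxD, and chromosome 15 held none. The intervals are 0.0227% of the span of the lists, so that 0.00975 WT regions would lie there at the list's mean density.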

How the data were processed

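Processed lists of regions were used for 3 groups of 2 ChIP-seq libraries each (0 h, 1 h and WT). The 2 input libraries and the 52 reporter, plasmid and key samples were not analysed here. Per the submitters' processing notes, Bowtie and build mm9 were used; for peak caller, threshold and the way replicates were combined, nothing is stated in the sources used here. Per the file headers, the deposited columns are a chromosome, a start, an end and the positions c1 and c2, from the values a centre inside the region or a mark for none, and no region lacks both. Neither column names a library. Starts and ends are printed as deposited. Depth is unknown.

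The Hox intervals, members and tests were chosen with earlier results of these data known. Regions counted as met when they overlapped by at least 1 base, and the counterpart was the region with most overlap. The rest of a chromosome is the span from its first to its last listed region, less the interval. Weighted shares used 8 width classes crossed with column support. Named were the 3 widest 0 h regions of each cluster, both-column 0 h regions not met at 1 h, 1 h regions not met at 0 h, regions of at least 600 bases and the longest stretch without regions; the remaining 0 h regions were added after their values were seen. Overlap code was checked on 4000 simulated regions drawn from the 0 h list, where 0 calls differed from an exhaustive search. Python 3.11.15, numpy 2.4.6, pandas 2.3.3, scipy 1.17.1 and matplotlib 3.10.9 were used.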

Additional observations from a re-analysis of the deposited data

How the results depend on the processing

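No paired analysis was possible because neither column is tied to a library or a replicate number. Of 84 alternatives, 58 left the value within its spread or on its side, 26 moved it and 0 reversed it. The labels ignore whether Hox or rest was higher. For 0 h regions with a 1 h counterpart, Hox led in the main setting (72.7% against 65.1%). The rest led for both-column regions (78.6% against 84.4%) and without the first 0 h column (72.2% against 74.6%). It also led at 50% overlap (45.5% against 53.8%) and from 100 bases (75% against 76.3%). Hox led in the other settings with a value for the rest. The change in the density ratio also turned for both-column regions. The alternatives with widened intervals and with neighbouring windows as background were chosen after seeing the data. Hox density at 0 h was 23.9 per Mb for both-column regions and 30.8 to 30.8 with 1 column left out, and 38.7, 33.8, 38.2 and 39.1 without HoxA, HoxB, HoxC and HoxD. Both 0 h columns held the same number of centres, so their SD was 0 and any change counted. At 1 h it was 13.7 for both-column regions, 22.2 to 27.4 with 1 column left out (lowest without the first), 41.6 without HoxB and 31.5 without HoxC. The ratio to the rest was 0.663 with intervals widened by 50 kb and 0.402 against neighbouring windows at 0 h. At 1 h it was 0.478 for both-column regions, 0.567 to 0.699 with 1 column left out, 0.844 without HoxB and 0.571 against neighbouring windows. Of the 0 h Hox regions, the part met at 1 h was 45.5% to 77.8% with 1 column left out (lowest without the first 1 h column, rest 42.3%), 45.5% at 50% overlap and 92.3% without HoxB. Of the 1 h Hox regions, the part met at 0 h was 100% for both-column regions (rest 99.6%), 47.6% at 50% overlap (rest 77%), 93.8% from 100 bases and 61.9% to 87.5% with 1 column left out. Median widths of both-column regions were 185 bases at 0 h and 220 at 1 h. The ratio of 0 h to 1 h Hox shares stayed at 0.737 to 0.926. The geometric mean of the column ratios to the rest, 0.573 in the main setting, stayed at 0.515 to 0.637. Why values moved was not tested.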
